A study of Mus musculus with 27 samples.

Results

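The microRNAs miR-23, miR-24 and miR-27 of the mouse were followed through the chromatin-bound, nucleoplasmic and cytoplasmic RNA of 3 cell types in culture. They were chosen by name: every entry whose microRNA name was miR-23a, miR-23b, miR-24, miR-27a or miR-27b, with any copy or arm suffix, was taken from the deposited table of small RNAs. This gave 9 entries of the 483 microRNA entries and of the 1013 small RNA entries in all, and each of the 9 was an entry for a mature arm. The study asked how small RNAs are distributed between compartments of the cell as stem cells become neurons. mCtx denotes primary cortical neurons after 5 days in culture, mNPC a neural progenitor line made by the submitting laboratory and grown with EGF and FGF, and mESC the stem cell line E14, derived from the embryo and kept with LIF. Every fraction of every cell type was sequenced as 3 libraries, which makes 9 groups and 27 libraries. No cells carried a treatment or an engineered allele in the labels, and both mESC and mNPC were a single line. The libraries of a group are called biological replicates, but separate cultures are not mentioned, and a p-value here reflects only how far these libraries scattered, possibly for technical reasons.

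MicroRNAs are cut from the stem of a hairpin in a primary transcript, and the duplex that Dicer leaves gives a 5p arm and a 3p arm, of which usually a single arm is retained in Argonaute. The retained arm finds messenger RNAs mainly through its seed, the bases just after its 5′ end. miR-23, miR-27 and miR-24 lie in this order in each of a pair of paralogous clusters in mammals, and the members of a cluster are made from a shared primary transcript. miR-27 is known for repressing Pparg, the nuclear receptor that drives fat cell formation, and in mouse neurons Apaf1, a gene of the cell death machinery. miR-23 is known for repressing lamin B1 in the oligodendrocyte lineage, and miR-24 for repressing the histone variant H2AX and cell cycle genes.

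The mature sequences are shown because the members fall into families by their seeds, and because the results below turn on telling 2 nearly equal sequences apart. They are those of RefSeq for GRCm38.p6, written from the 5′ end, with the seed (bases 2 to 8) in capitals. Of the 9 entries, 8 matched a mature sequence by name, and all 8 had the same coordinates in the deposited table and in the sequence table. The entry not shown is miR-23b-3p.
miR-27b-3p: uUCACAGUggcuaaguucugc
miR-27a-3p: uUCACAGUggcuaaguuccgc
miR-23a-3p: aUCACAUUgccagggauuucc
miR-24-3p: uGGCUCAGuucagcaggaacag
miR-24-2-5p: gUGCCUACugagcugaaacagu
miR-27b-5p: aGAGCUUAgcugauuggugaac
miR-27a-5p: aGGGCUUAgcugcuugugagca

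miR-27a-3p and miR-27b-3p shared their seed, which no other of the 1679 mature names in the sequence table had. Over their 21 bases they differed by C19U, with the base of miR-27a-3p given before the position, counted from 1 at the 5′ end, and that of miR-27b-3p after it. Their 5p arms were less alike, with 14 of 22 bases the same. The mature miR-24-3p was the same in all 22 bases at both loci, and its seed was found in 5 mature names of the table. miR-24-2-5p shared its seed with miR-24-1-5p.

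In GRCm38 coordinates, all 6 hairpins were on the plus strand. The chromosome 13 cluster, with Mir23b, Mir27b and Mir24-1, spanned 792 bases at chr13:63300484-63301275. It lies inside the protein-coding gene 2010111I01Rik, which is on the same strand, and opposite Fancc, which has no exon there. In GENCODE, Mir23b lies between exons of 2010111I01Rik, while Mir27b and Mir24-1 overlap exons of non-coding or decay-prone transcripts of that gene. The chromosome 8 cluster, with Mir23a, Mir27a and Mir24-2, spanned 404 bases at chr8:84208518-84208921. Mir23a and Mir27a lie between annotated genes, and the last bases of Mir24-2 reach into the long non-coding RNA gene Gm26532. The 4 chromosome 13 entries were miR-23b-3p at 63300529-63300549, miR-27b-5p at 63300718-63300739, miR-27b-3p at 63300760-63300780 and miR-24-3p at 63301251-63301272. The 5 chromosome 8 entries were miR-23a-3p at 84208563-84208583, miR-27a-5p at 84208685-84208706, miR-27a-3p at 84208727-84208747, miR-24-2-5p at 84208839-84208860 and miR-24-3p at 84208875-84208896.

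Levels are in RPM, the library-scaled read unit of the authors' table. In each library every value under a lowest listed value, which was between 5.16 and 59.07 RPM, stood as 0, so a 0 is not read as absence. The number of reads was not given, so depth is unknown and no counting interval can be drawn. RPM are relative values within a library, and the summed level of all microRNA entries moved with the fraction. In chromatin it summed to 183544 to 228221 RPM for mESC, to 466212 to 631859 RPM for mNPC and, for mCtx, to 589985 to 631680 RPM, while in nucleoplasm and cytoplasm it was 669894 to 740462 RPM in mESC and 853923 to 916139 RPM in mNPC and mCtx. The cell labels were checked on marker microRNAs. The stem cell list (16 entries) summed to 19861 to 93870 RPM over the mESC libraries and stood at 0 in all mNPC and mCtx libraries. Of its 11 names, 8 had entries, namely miR-290a to miR-295, miR-302a and miR-302d, while miR-302b, miR-302c and miR-367 had none. miR-302a and miR-302d reached at most 59.4 and 65.1 RPM, so nearly all of the sum was miR-290 to miR-295. miR-124, the defining microRNA of neurons, was 1001 to 4623 RPM in mCtx and 0 in mNPC, and in mESC it was listed above 0 only in nucleoplasm, at 90.5 to 109 RPM. The neural progenitor list (8 entries) summed to 35131 to 111415 RPM in mNPC and 120 to 925 RPM in mESC. In mCtx it summed to 45790 to 139917 RPM. The sum set mNPC apart from mESC, but from mCtx only in nucleoplasm (80162 to 97112 RPM in mNPC, 61121 to 74550 RPM in mCtx). Of the list's 4 names, 3 had entries. Nearly all of the sum was miR-9, at 34835 to 110311 RPM in mNPC and 45438 to 139595 RPM in mCtx. In every fraction miR-92b was higher in mNPC than in mCtx without overlap, with 966 to 1310 RPM against 95.5 to 115 RPM in nucleoplasm. miR-153 was higher in mNPC without overlap only in cytoplasm.

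miR-27b-3p was by far the most abundant member, with a mean of 6394 RPM over the 27 libraries, and it was listed in every one. miR-27a-3p followed with 1043 RPM and miR-23a-3p with 301 RPM. The chromosome 13 and chromosome 8 entries of miR-24-3p averaged 236 and 195 RPM, miR-23b-3p 122 RPM and miR-24-2-5p 115 RPM. The 5p arms miR-27b-5p and miR-27a-5p averaged 38.1 and 31.3 RPM and were listed in 11 and 8 libraries. The 8 members with a sequence are 21 or 22 bases long, and what sets their levels apart was not tested. The members together made up 2.47% ± 0.405 (SD, n = 3), 2.61% ± 0.253 and 2.73% ± 0.296 of the microRNA reads in mESC chromatin, nucleoplasm and cytoplasm. In mNPC the shares were 0.981% ± 0.145, 0.737% ± 0.0919 and 0.878% ± 0.0483, and in mCtx 0.581% ± 0.00943, 0.519% ± 0.0409 and 0.633% ± 0.117. The lowest mESC library lay above the highest mNPC library, and every mCtx library lay below every mNPC library of the same fraction. These are bulk samples, in which fewer cells of a type and less RNA per cell cannot be told apart.

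**Figure D1:**
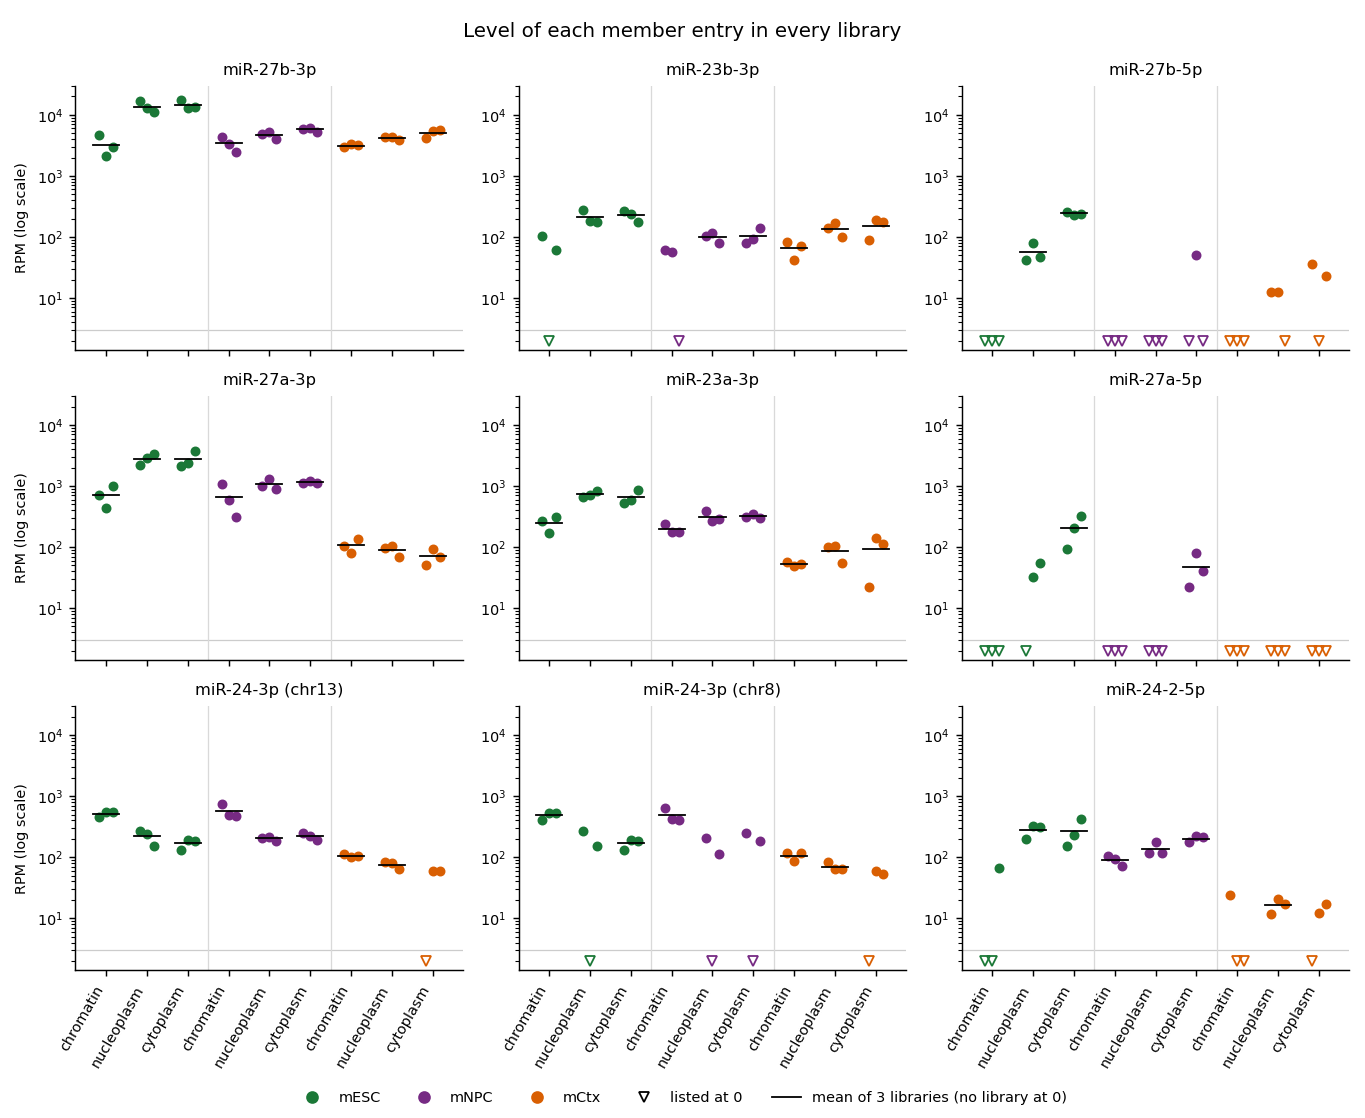
RPM of each of the 9 member entries in every library, on a log axis, by cell type (colour) and fraction; open triangles below the grey line are libraries listed at 0, and bars are means of 3 libraries where none was at 0. miR-27b-3p stayed between 2117 and 17280 RPM in all libraries, while miR-27a-3p lay between 50.3 and 134 RPM in mCtx and between 309 and 3724 RPM elsewhere.

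Changes were tested with limma on log2(RPM + 1) in a fit of all 9 groups, and a member passed at a Benjamini-Hochberg adjusted p under 0.05 over the 851 entries tested in that comparison. All 9 members were among the 851. Differences are given on the log2(RPM + 1) scale with their standard error (SE).

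The mNPC libraries were set against the mESC libraries for the step to the neural lineage. miR-27b-3p, miR-27a-3p and miR-23a-3p were lower in mNPC in nucleoplasm, the miR-27 pair also in cytoplasm, and none of these passed in chromatin. miR-27b-3p had 4796, 5245 and 4092 RPM in mNPC nucleoplasm, against 17057, 12719 and 11200 RPM in mESC nucleoplasm. It had 5891, 6127 and 5294 RPM in mNPC cytoplasm, against 17280, 12747 and 13217 RPM in mESC cytoplasm. In both fractions each mNPC library lay below each mESC library, and the differences were -1.52 (SE 0.231, adjusted p = 1.13e-05) and -1.31 (SE 0.231, adjusted p = 6.98e-05). In chromatin miR-27b-3p had 4321, 3379 and 2503 RPM in mNPC, against 4652, 2117 and 2932 RPM in mESC. These chromatin libraries overlapped, and the difference of 0.11 (95% interval -0.37 to 0.60, adjusted p = 0.928) did not pass. By mean level of miR-27b-3p the 9 groups ran from mCtx, mESC and mNPC chromatin (3137 ± 140, 3233 ± 1294 and 3401 ± 909 RPM), through mCtx and mNPC nucleoplasm (4204 ± 249 and 4711 ± 581 RPM) and mCtx and mNPC cytoplasm (5020 ± 781 and 5771 ± 429 RPM), to mESC nucleoplasm and cytoplasm (13659 ± 3040 and 14415 ± 2493 RPM; SD, n = 3 each). Neighbours in this order were within their spread except mNPC cytoplasm and mESC nucleoplasm, and no library of any group lay between 6127 and 11200 RPM. Per microRNA read, where each value was divided by the library's summed microRNA entries, miR-27b-3p was lower in mNPC chromatin by -1.25 (adjusted p = 6.82e-06).

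miR-27a-3p had 1015, 1285 and 879 RPM in mNPC nucleoplasm, against 2214, 2856 and 3319 RPM in mESC nucleoplasm. It had 1103, 1225 and 1104 RPM in mNPC cytoplasm, against 2104, 2383 and 3724 RPM in mESC cytoplasm. The groups did not overlap in either fraction, and the differences were -1.40 (SE 0.374, adjusted p = 0.00354) and -1.21 (SE 0.374, adjusted p = 0.0111). Without mESC cytoplasm replicate 3, the highest library, the cytoplasmic difference was -0.97 and no longer passed (adjusted p = 0.0673). In chromatin miR-27a-3p had 1063, 595 and 309 RPM in mNPC, against 724, 442 and 1007 RPM in mESC, and the groups overlapped (difference -0.24, 95% interval -1.02 to 0.54, adjusted p = 0.791). miR-23a-3p, from the same cluster, had 395, 265 and 290 RPM in mNPC nucleoplasm, against 668, 707 and 824 RPM in mESC nucleoplasm. These did not overlap, and the difference of -1.22 passed (SE 0.454, adjusted p = 0.0308). It did not pass without mESC nucleoplasm replicate 2 (adjusted p = 0.0564) or 3 (0.0825), nor without mNPC nucleoplasm replicate 2 (0.0946) or 3 (0.0768). In cytoplasm miR-23a-3p had 315, 350 and 301 RPM in mNPC, against 523, 594 and 864 RPM in mESC, with no overlap and a difference of -1.004 that did not pass (adjusted p = 0.0872). miR-23b-3p had 103, 116 and 78.5 RPM in mNPC nucleoplasm, against 280, 183 and 178 RPM in mESC nucleoplasm, and 79.8, 93.2 and 142.2 RPM in mNPC cytoplasm, against 266, 242 and 175 RPM in mESC cytoplasm. The mNPC libraries lay below the mESC libraries in both fractions, but the differences of -1.09 (95% interval -3.92 to 1.75) and -1.13 (-3.96 to 1.71) did not pass.

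Of the 9 members, 5 were lower in mNPC nucleoplasm, where 35.8% of all entries tested were lower. These were miR-27b-3p, miR-27a-3p, miR-23a-3p and both miR-27 5p arms. In mNPC cytoplasm 3 were lower (miR-27b-3p, miR-27a-3p and miR-27b-5p), where 27.5% of all entries were lower. The nucleoplasmic calls of both 5p arms were lost with a common floor, in which all values under 59.07 RPM are raised to it (adjusted p = 0.137 for miR-27b-5p and 1 for miR-27a-5p). miR-27a-5p, which overlapped there, did not pass with these groups alone either (adjusted p = 0.175). The members' median difference in nucleoplasm was -1.22, that of all entries -1.20 and that of the microRNA entries 0. In chromatin 1 member was higher, against 15.9% of all entries higher. That member was miR-24-2-5p, with 104, 94.1 and 70.9 RPM in mNPC chromatin, against 0, 0 and 65.8 RPM in mESC chromatin. It passed at adjusted p = 0.00911, and the call was lost without mESC chromatin replicate 1 (adjusted p = 0.0635) or replicate 2 (0.0637), with a common floor (0.104) and with these groups alone in the fit (0.138). The marker lists differed in both directions in this comparison. In every fraction the sums of the neural progenitor, neuron (19 entries) and glia (5 entries) lists were higher in mNPC without overlap. The neuron list summed to 354 to 1450 RPM in mNPC and 52.0 to 977 RPM in mESC. Within it, miR-128 and miR-132 were higher in mNPC without overlap in every fraction, but not all members were. miR-138 was lower in mNPC nucleoplasm, at 0 to 71.4 RPM against 90.5 to 165 RPM in mESC. In cytoplasm miR-138 had 0 to 29.7 RPM in mNPC and 88.2 to 157 RPM in mESC. miR-124 was lower in mNPC nucleoplasm, and miR-137 stood at 0 in both cell types. The glia list summed to 260 to 1636 RPM in mNPC and 0 to 428 RPM in mESC. The lists given next were lower. The endothelium and mesenchyme list (9 entries) summed to 112 to 378 RPM over the mNPC libraries, against 949 to 7710 RPM over the mESC libraries, with miR-126a, its defining endothelial microRNA, at 0 to 138.4 RPM in mNPC and 203 to 1622 RPM in mESC. The microglia and blood list (4 entries) summed to 0 to 29.2 RPM in mNPC, with miR-142a at 0 in every library, against 407 to 4016 RPM in mESC. The part of these cells or programmes in the members' difference was not tested. With each library centred on the entries listed everywhere, miR-27a-3p passed in neither fraction (adjusted p = 0.280 in nucleoplasm and 0.688 in cytoplasm) and miR-23a-3p did not pass in nucleoplasm (adjusted p = 0.620).

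The mCtx libraries were then set against the mNPC libraries, and here miR-27a-3p parted from miR-27b-3p. miR-27a-3p and miR-23a-3p were lower in mCtx in all 3 fractions, while miR-27b-3p and miR-23b-3p passed in none. miR-27a-3p had 105, 80.4 and 134 RPM in mCtx chromatin, against 1063, 595 and 309 RPM in mNPC chromatin. It had 98.0, 103 and 69.2 RPM in mCtx nucleoplasm, against 1015, 1285 and 879 RPM in mNPC nucleoplasm. In cytoplasm it had 50.3, 94.4 and 68.9 RPM in mCtx, against 1103, 1225 and 1104 RPM in mNPC. Every mCtx library lay below every mNPC library of its fraction. The differences were -2.46 in chromatin (adjusted p = 2.18e-05), -3.54 in nucleoplasm (adjusted p = 1.57e-07) and -4.03 in cytoplasm (adjusted p = 2.17e-08), each with SE 0.374.

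miR-23a-3p had 57.9, 48.1 and 52.7 RPM in mCtx chromatin, against 235, 174 and 174 RPM in mNPC chromatin. It had 101, 105 and 55.0 RPM in mCtx nucleoplasm, against 395, 265 and 290 RPM in mNPC nucleoplasm. In cytoplasm it had 22.4, 142.5 and 111 RPM in mCtx, with replicate 1 far below the others, against 315, 350 and 301 RPM in mNPC. No mCtx library reached the lowest mNPC library of its fraction. The differences were -1.85 in chromatin (adjusted p = 0.00360), -1.89 in nucleoplasm (adjusted p = 0.00234) and -2.16 in cytoplasm (adjusted p = 0.000753), each with SE 0.454. With only mCtx and mNPC cytoplasm in the fit, that last difference did not pass (adjusted p = 0.0859).

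miR-27b-3p, which has the same seed as miR-27a-3p, had 2989, 3267 and 3155 RPM in mCtx chromatin, against 4321, 3379 and 2503 RPM in mNPC chromatin. It had 4349, 4348 and 3916 RPM in mCtx nucleoplasm, against 4796, 5245 and 4092 RPM in mNPC nucleoplasm. In cytoplasm it had 4129, 5338 and 5591 RPM in mCtx, against 5891, 6127 and 5294 RPM in mNPC. The libraries overlapped in every fraction. The differences were -0.08 (95% interval -0.56 to 0.40, adjusted p = 1), -0.16 (-0.64 to 0.32, adjusted p = 0.815) and -0.21 (-0.69 to 0.27, adjusted p = 0.704). None of the intervals reached the size of the change of miR-27a-3p in the same fraction. miR-23b-3p had 140, 170 and 101 RPM in mCtx nucleoplasm, against 103, 116 and 78.5 RPM in mNPC nucleoplasm, and 87.6, 193 and 178 RPM in mCtx cytoplasm, against 79.8, 93.2 and 142.2 RPM in mNPC cytoplasm. The groups overlapped, and the differences were 0.45 (95% interval -2.39 to 3.29) and 0.50 (-2.34 to 3.33), so a change of several fold either way could not be seen. Both intervals include the change of miR-23a-3p in the same fraction, so these tests do not set the miR-23 forms apart. In chromatin miR-23b-3p had 83.8, 42.5 and 70.3 RPM in mCtx, against 60.1, 56.4 and 0 RPM in mNPC. These overlapped too, and the difference was 2.08 (95% interval -0.76 to 4.91).

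In this step 3 members were lower in mCtx chromatin, where 11.9% of all entries were lower, 2 in nucleoplasm, where 10.3% were lower, and 5 in cytoplasm, where 10.8% were lower. No member was higher, against 16%, 23.5% and 21.5% of all entries. The neuron list (19 entries) moved with this comparison. It summed to 17194 to 49574 RPM in the mCtx libraries, against 354 to 1450 RPM in the mNPC libraries. The glia list (5 entries) ran the other way without overlap in all 3 fractions, with 156 to 170 RPM in mCtx chromatin and 260 to 1241 RPM in mNPC chromatin, 134.7 to 243 RPM in mCtx nucleoplasm and 806 to 1619 RPM in mNPC nucleoplasm, and 52.2 to 213 RPM in mCtx cytoplasm and 1214 to 1636 RPM in mNPC cytoplasm. Much of the glia sum in mNPC was miR-29a, at 147.7 to 1255 RPM in mNPC and 0 to 118.5 RPM in mCtx. miR-29a and miR-146a were higher in mNPC without overlap in every fraction. miR-338 overlapped in chromatin and nucleoplasm, and miR-219a in chromatin. The endothelium and mesenchyme list summed to 2192 to 4099 RPM in mCtx and 112 to 378 RPM in mNPC. Most of that sum was miR-143, at 2146 to 3882 RPM in mCtx and 84.7 to 232 RPM in mNPC, while miR-126a overlapped, at 35.4 to 152.8 RPM in mCtx and 0 to 138.4 RPM in mNPC. The part of these lists in the members' difference was not tested. Of the 31 tested entries of a neural lineage and glia list, with miR-9, miR-124, miR-128 and miR-125b among its microRNAs, 10, 13 and 12 were higher and 2, 0 and 4 lower in mCtx chromatin, nucleoplasm and cytoplasm.

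Across the whole span, mCtx was set against mESC. Here 3 members were lower in mCtx chromatin (29.3% of all entries), 6 in nucleoplasm (31.3%) and 7 in cytoplasm (24.4%). The nucleoplasm calls included miR-27b-5p, miR-27a-5p and miR-24-2-5p. Those of miR-27b-5p and miR-27a-5p were lost with a common floor and with these groups alone in the fit (adjusted p = 0.0827 and 0.150). That of miR-24-2-5p was lost with centred libraries (adjusted p = 0.116). In cytoplasm the call of miR-27b-5p was lost with these groups alone (adjusted p = 0.0609). miR-27a-3p differed by -2.70 in chromatin, -4.94 in nucleoplasm and -5.25 in cytoplasm, the last at adjusted p = 1.53e-10. miR-23a-3p differed by -2.18, -3.11 and -3.16, the last at adjusted p = 6.18e-06. miR-27b-3p was lower in nucleoplasm by -1.68 (adjusted p = 3.42e-06) and in cytoplasm by -1.52 (adjusted p = 1.26e-05), each with SE 0.231, and in chromatin it differed by 0.03 (95% interval -0.45 to 0.51, adjusted p = 1). This comparison shares the mCtx and mESC libraries with both steps above. The plot of cell type differences shows the separation of the a forms, which were lower in both steps in nucleoplasm, from miR-27b-3p.

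**Figure D2:**
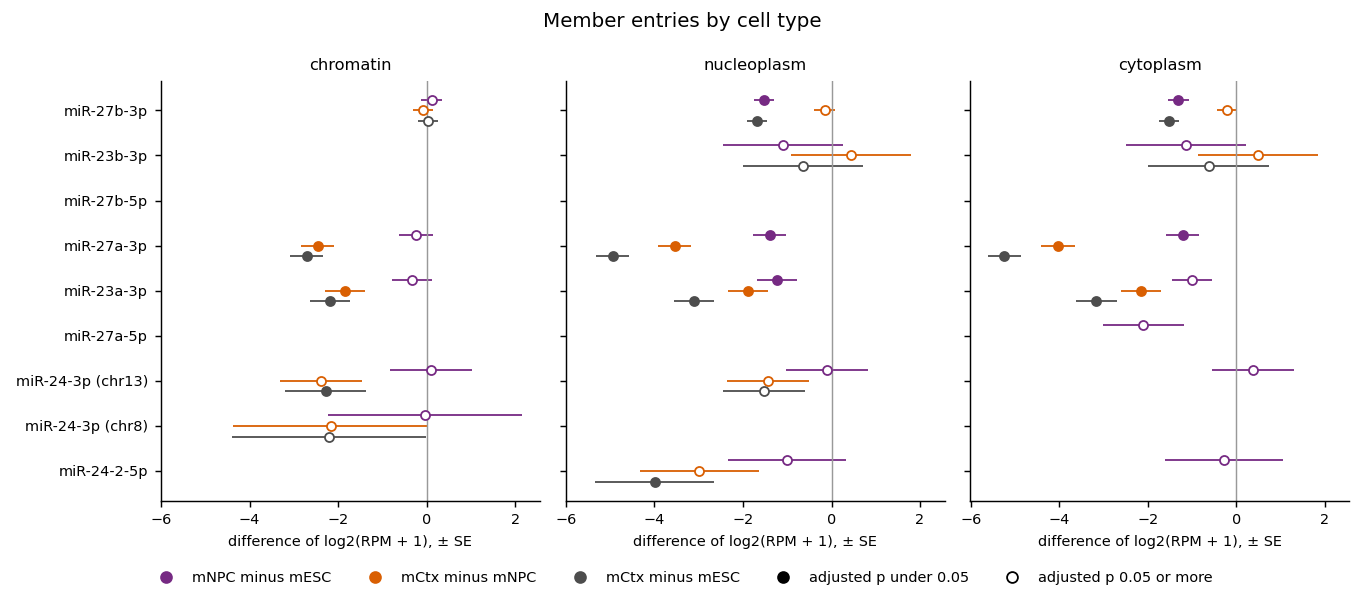
Differences between cell types on the log2(RPM + 1) scale, ± SE, for each member in each fraction; filled points passed and open points did not, and pairs of groups in which a library stood at 0 are not drawn. For mCtx minus mNPC (orange), miR-27a-3p sits between -2.46 and -4.03 and miR-27b-3p between -0.08 and -0.21.

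The balance of the a and b forms followed from these levels and did not depend on how a library was scaled, since both forms were measured in the same library. The ratio of miR-27b-3p to miR-27a-3p was 4.71 ± 1.76 in mESC chromatin, 5.18 ± 2.25 in mESC nucleoplasm and 5.70 ± 2.35 in mESC cytoplasm (SD, n = 3). It was 5.95 ± 2.03, 4.49 ± 0.352 and 5.05 ± 0.276 in the mNPC fractions, within the mESC range. In mCtx it was 30.9 ± 8.83 in chromatin, 47.7 ± 7.81 in nucleoplasm and 73.3 ± 14.5 in cytoplasm. The mCtx libraries lay between 23.5 and 82.1, and the libraries of the other cells between 2.91 and 8.21. Within mCtx, the chromatin libraries (23.5, 28.4 and 40.6) all lay below the cytoplasm libraries (56.6, 81.2 and 82.1). miR-23 moved in the same manner. miR-23b-3p made up 54.4% ± 6.55, 61.6% ± 3.38 and 66.2% ± 11.8 of the miR-23 reads in mCtx chromatin, nucleoplasm and cytoplasm, against 24.1% ± 5.39 in mNPC nucleoplasm and 24.5% ± 6.64 in mNPC cytoplasm, with no overlap. In mESC it made up 22.6% ± 6.16 in nucleoplasm and 26.5% ± 8.70 in cytoplasm. In chromatin the share was 20.3%, 24.5% and 0% in the mNPC libraries and 27.9%, 0% and 16.2% in the mESC libraries, all below the mCtx chromatin libraries. In mESC the miR-27 ratio followed the replicate number. In chromatin, nucleoplasm and cytoplasm it was 6.42, 7.70 and 8.21 for replicate 1. For replicate 2 it was 4.79, 4.45 and 5.35, and for replicate 3 it was 2.91, 3.37 and 3.55. The spreads of the mESC fractions are therefore not independent of one another, while mNPC and mCtx showed no such order. The ratios of both miRNAs were computed from values that had already been tested singly, and they have no test of their own.

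**Figure D3:**
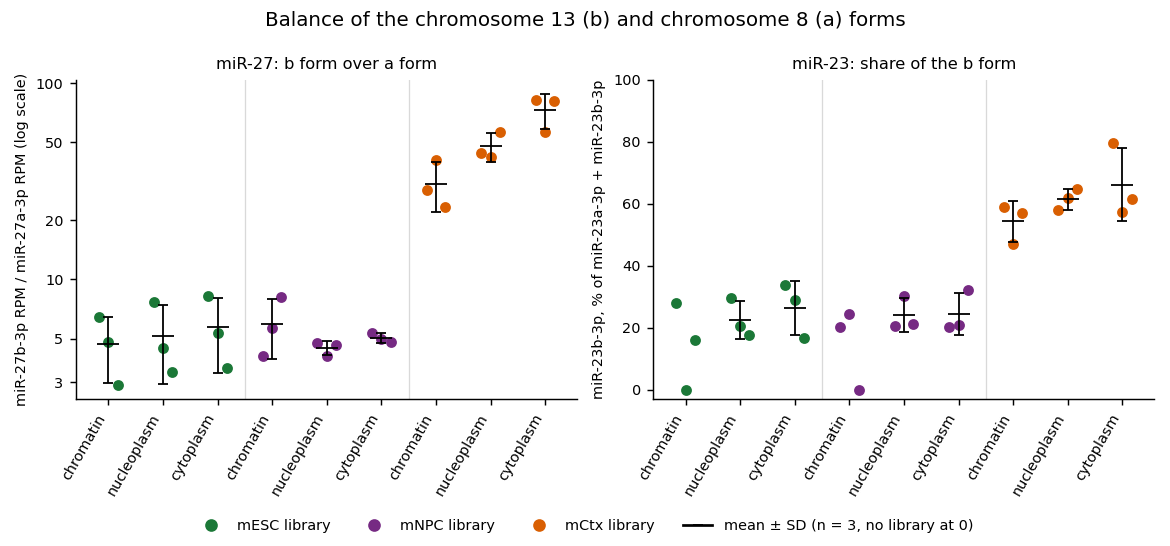
Left, the ratio of miR-27b-3p to miR-27a-3p in each library, on a log axis; right, miR-23b-3p as a percentage of miR-23a-3p plus miR-23b-3p. Points are libraries, bars mean ± SD of 3 libraries where none was at 0. The mCtx libraries sit above all others on both sides, at ratios of 23.5 to 82.1 and shares of 46.9% to 79.7%.

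Within a cluster the members did not keep a fixed ratio. miR-27a-3p was 2.84 ± 0.340, 3.79 ± 0.414 and 4.11 ± 0.170 times miR-23a-3p in mESC chromatin, nucleoplasm and cytoplasm. In mNPC it was 3.24 ± 1.38, 3.48 ± 1.20 and 3.56 ± 0.0998 times as high, and in mCtx 2.01 ± 0.469, 1.07 ± 0.163 and 1.18 ± 0.929 times. In mCtx nucleoplasm and cytoplasm every library was at or below 2.25, and the mESC libraries of the same fractions were at or above 3.32. On chromosome 13, miR-27b-3p was 64.4 ± 4.47 and 64.4 ± 11.5 times miR-23b-3p in mESC nucleoplasm and cytoplasm, 48.0 ± 3.66 and 58.9 ± 19.2 times in mNPC, and 31.8 ± 6.68 and 35.4 ± 10.3 times in mCtx. In chromatin the order was not the same: the ratio was 45.2 and 48.6 in the mESC libraries with a value, 71.9 and 59.9 in those of mNPC, and 35.6, 76.9 and 44.9 in mCtx, which overlapped both. How the authors shared reads that match both miR-27a-3p and miR-27b-3p, which differ at a single base, is not given in the sources used here, and ratios of nearly equal sequences carry that uncertainty. The rule for reads that match both miR-23a-3p and miR-23b-3p is not given either. The miR-23 forms could not be compared base by base here, and their shares carry the same uncertainty.

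The fractions of a cell type were compared next, for where in the cell each member was found. In mESC the 3p arms of miR-27 and miR-23 were lower in chromatin than in cytoplasm, while nucleoplasm and cytoplasm overlapped for each. miR-27b-3p had 4652, 2117 and 2932 RPM in mESC chromatin, against 17280, 12747 and 13217 RPM in mESC cytoplasm, with no overlap and a difference of -2.22 (SE 0.231, adjusted p = 7.41e-08). miR-27a-3p had 724, 442 and 1007 RPM in mESC chromatin, against 2104, 2383 and 3724 RPM in mESC cytoplasm. This too did not overlap, and the difference was -1.95 (SE 0.374, adjusted p = 0.000145). miR-23a-3p had 266, 172 and 312 RPM in mESC chromatin, against 523, 594 and 864 RPM in mESC cytoplasm. Its difference of -1.41 passed (SE 0.454, adjusted p = 0.0120), but not without mESC chromatin replicate 2 (adjusted p = 0.0635) or mESC cytoplasm replicate 3 (adjusted p = 0.0560). miR-23b-3p had 103, 0 and 60.3 RPM in mESC chromatin, against 266, 242 and 175 RPM in mESC cytoplasm. All its chromatin libraries lay below the cytoplasm libraries, and it passed at adjusted p = 0.0293. That call was lost without mESC chromatin replicate 2, the library at 0 (adjusted p = 0.301), and without mESC cytoplasm replicate 1 (0.0711) or 2 (0.0648).

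In all, 7 of the 9 members were lower in mESC chromatin, against 29.5% of all entries and 46.7% of the microRNA entries tested. The median difference was -2.22 for the members, -1.59 for all microRNA entries and 0 for all entries. The summed microRNA entries were themselves 183544 to 228221 RPM in mESC chromatin and 676466 to 740462 RPM in mESC cytoplasm. Per microRNA read, miR-27b-3p was still lower in chromatin, by -0.49 (SE 0.184, adjusted p = 0.0344). On that scale miR-27a-3p differed by -0.22 (adjusted p = 0.726), and miR-23a-3p turned to 0.31 (adjusted p = 0.712), neither of which passed.

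In mNPC the gap was smaller. miR-27b-3p had 4321, 3379 and 2503 RPM in mNPC chromatin, against 5891, 6127 and 5294 RPM in mNPC cytoplasm. The groups did not overlap, and the difference of -0.80 passed (SE 0.231, adjusted p = 0.00914), though not without mNPC chromatin replicate 3 (-0.59, adjusted p = 0.0707). miR-27a-3p had 1063, 595 and 309 RPM in mNPC chromatin, against 1103, 1225 and 1104 RPM in mNPC cytoplasm. Its difference of -0.98 just passed (SE 0.374, adjusted p = 0.0447), and the call was lost when any of 13 of the 27 libraries was left out. miR-23a-3p had 235, 174 and 174 RPM in mNPC chromatin, against 315, 350 and 301 RPM in mNPC cytoplasm, without overlap, and did not pass (-0.74, adjusted p = 0.251). Together 3 of 9 members were lower, against 19.5% of all entries, and the count was 1 without mNPC chromatin replicate 3 and 5 without mCtx cytoplasm replicate 1. Per microRNA read, miR-27b-3p differed by -0.05 (adjusted p = 1) and miR-27a-3p by -0.23 (adjusted p = 0.903).

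The gap between chromatin and cytoplasm of miR-27b-3p itself differed between mNPC and mESC, by 1.42 (SE 0.326, adjusted p = 0.00196). Of the 9 members, 2 had such a difference in this direction, against 18.9% of all entries. Per microRNA read it was 0.44 and did not pass (adjusted p = 0.236). For miR-27a-3p it was 0.97 (95% interval -0.13 to 2.08, adjusted p = 0.180) and for miR-23a-3p 0.67 (-0.67 to 2.02, adjusted p = 0.466).

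In mCtx, miR-27b-3p had 2989, 3267 and 3155 RPM in chromatin, against 4129, 5338 and 5591 RPM in cytoplasm, without overlap. The difference was -0.67 (SE 0.231, adjusted p = 0.0239). It did not pass without mCtx chromatin replicate 1 (adjusted p = 0.0654) or 3 (0.0526), nor without mCtx cytoplasm replicate 2 (0.0748) or 3 (0.0915). Per microRNA read it was -0.19 (adjusted p = 0.520), and with centred libraries it turned to 0.94 (adjusted p = 5.11e-05). miR-27a-3p, by contrast, had 105, 80.4 and 134 RPM in mCtx chromatin, against 50.3, 94.4 and 68.9 RPM in mCtx cytoplasm. These overlapped, and the difference of 0.59 did not pass (SE 0.374, adjusted p = 0.235), while per microRNA read it was 1.07 (adjusted p = 0.0108). The gap of miR-27a-3p between chromatin and cytoplasm differed between mCtx and mNPC by 1.57 (SE 0.529, adjusted p = 0.0478), a call lost when any of 20 of the 27 libraries was left out. Of the 9 members, 2 had such a difference in this direction, against 6.11% of all entries. For miR-27b-3p that difference was 0.13 (95% interval -0.55 to 0.81, adjusted p = 0.928). In mCtx chromatin against cytoplasm 2 members were lower, against 23.9% of all entries, and 1 was higher, against 20.2%. The count was 1 in all without mCtx chromatin replicate 1 or 3 or mCtx cytoplasm replicate 3.

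Nucleoplasm and cytoplasm differed less. For miR-27b-3p the mESC difference was -0.09 (95% interval -0.57 to 0.40), that of mNPC -0.30 (-0.78 to 0.19) and that of mCtx -0.24 (-0.73 to 0.24). The mNPC nucleoplasm libraries, at 4092 to 5245 RPM, all lay just under the mNPC cytoplasm libraries, at 5294 to 6127 RPM, and those of mESC and mCtx overlapped. For miR-27a-3p the differences were 0.06 (-0.73 to 0.84), -0.13 (-0.91 to 0.66) and 0.36 (-0.42 to 1.14). By limma 1 member was lower in nucleoplasm in mESC (5.17% of all entries lower) and 1 in mNPC (6.11%), miR-27a-5p in each. The mESC call was lost with these groups alone in the fit (adjusted p = 0.375) and the mNPC call with a common floor (adjusted p = 1). In mCtx none passed (25.3% of all entries did, in either direction), and 1 member, the chromosome 13 entry of miR-24-3p, had an unadjusted p under 0.05.

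**Figure D4:**
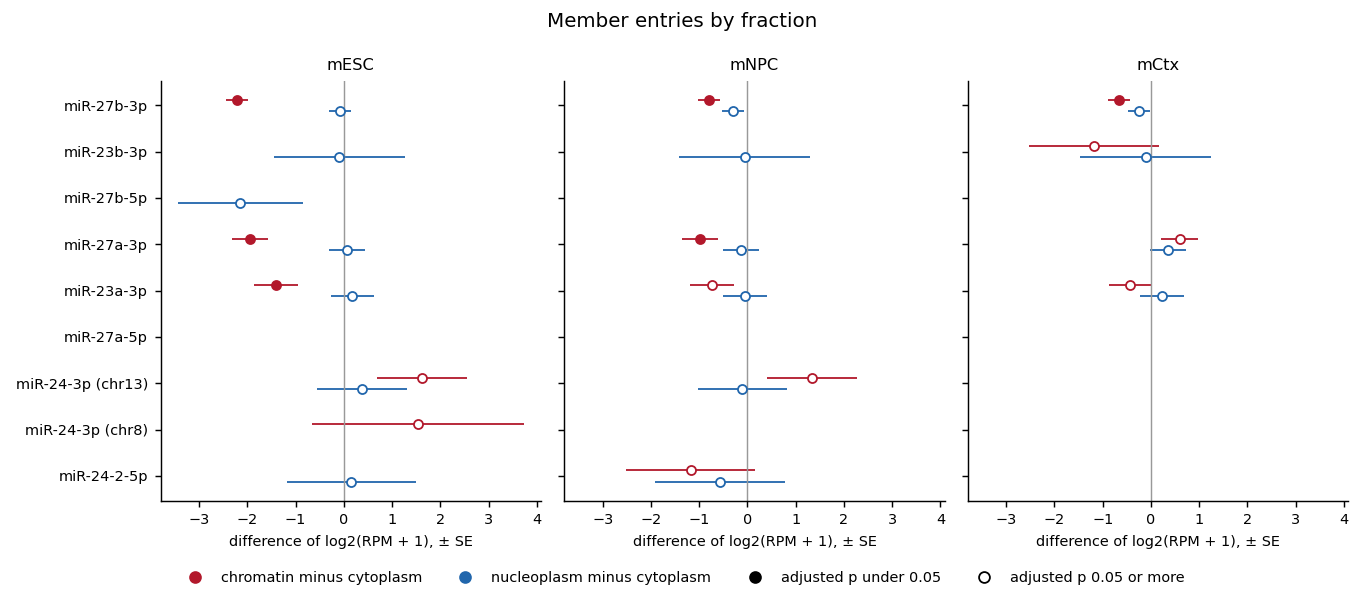
Differences between fractions on the log2(RPM + 1) scale, ± SE, for each member in each cell type; filled points passed and open points did not, and pairs of groups in which a library stood at 0 are not drawn. Chromatin minus cytoplasm (red) is at -2.22, -0.80 and -0.67 for miR-27b-3p in mESC, mNPC and mCtx, while both miR-24-3p entries lie above 0 in mESC.

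miR-24-3p, the remaining guide arm of both clusters, had the opposite order of fractions. Its chromosome 13 entry had 452, 556 and 550 RPM in mESC chromatin, against 132.2, 193 and 184 RPM in mESC cytoplasm. It had 736, 491 and 467 RPM in mNPC chromatin, against 252, 218 and 189 RPM in mNPC cytoplasm. In mCtx it had 115, 98.9 and 103 RPM in chromatin, against 0, 58.4 and 60.3 RPM in cytoplasm. In each cell type every chromatin library lay above every cytoplasm library. The differences in mESC and mNPC were 1.62 (SE 0.926, adjusted p = 0.159) and 1.34 (SE 0.926, adjusted p = 0.318), and neither passed. The mCtx comparison passed at adjusted p = 0.0187, though not with these groups alone in the fit (adjusted p = 0.303). Both entries stood at 0 in mCtx cytoplasm replicate 1, which is part of the shared fit. The lowest listed value of that library was 18.6 RPM, against 9.31 and 8.40 RPM in replicates 2 and 3. Without that library, the same differences in mESC and mNPC passed at adjusted p = 3.22e-06 and 6.08e-05, and that in mCtx was 0.82 (adjusted p = 0.00961). The summed microRNA entries ran the other way, as given above.

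In nucleoplasm the chromosome 13 entry had 274, 243 and 154 RPM in mESC, 207, 214.2 and 188 RPM in mNPC and 82.8, 79.7 and 63.3 RPM in mCtx. Nucleoplasm and cytoplasm overlapped in mESC and mNPC, and both lay below chromatin. As a share of miR-27b-3p, the higher of the miR-24-3p entries was 18.2% ± 8.28 in mESC chromatin, against 1.22% ± 0.402 in mESC cytoplasm, and 16.7% ± 2.06 in mNPC chromatin, against 3.80% ± 0.413 in mNPC cytoplasm (SD, n = 3). In mCtx it was 3.53% ± 0.456 in chromatin, against 0%, 1.09% and 1.08% in the cytoplasm libraries. In none of the 3 cell types did the chromatin libraries overlap those of cytoplasm.

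Between cell types, the chromosome 13 entry passed as lower in mCtx in 3 of 6 comparisons. In chromatin the mCtx libraries, at 98.9 to 115 RPM, lay below the mNPC libraries, at 467 to 736 RPM, and the mESC libraries, at 452 to 556 RPM. Against mNPC the chromatin difference was -2.38 (SE 0.926, adjusted p = 0.0623) and did not pass. Against mESC it was -2.29 and just passed (adjusted p = 0.0450), a call lost when any of 22 of the 27 libraries was left out, mostly libraries of other groups. In cytoplasm mCtx passed against mNPC (adjusted p = 0.00253) and against mESC (adjusted p = 0.00421). Without mCtx cytoplasm replicate 1, the library at 0, these differences were -1.86 (adjusted p = 4.23e-06) and -1.48 (adjusted p = 4.52e-05), and with the groups of the comparison alone neither passed (adjusted p = 0.192 and 0.196). In nucleoplasm the mCtx libraries lay below those of mNPC and mESC, and the differences of -1.43 (adjusted p = 0.310) and -1.53 (adjusted p = 0.181) did not pass. Between mNPC and mESC the entry overlapped in every fraction, with differences of 0.10 in chromatin (95% interval -1.84 to 2.03), -0.10 in nucleoplasm (-2.04 to 1.84) and 0.38 in cytoplasm (-1.56 to 2.32).

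The mature miR-24-3p of both loci is the same sequence, so reads cannot be told apart by locus, and the authors' rule for sharing them is not given in the sources used here. The pair of entries had equal values, within a relative tolerance of 0.001, in 10 libraries and unequal values in 13. In 3 libraries the chromosome 13 entry was listed and the chromosome 8 entry stood at 0, and in 1 library both stood at 0. Where both were above 0, the chromosome 8 entry was 0.598 to 1.12 times the chromosome 13 entry. The chromosome 8 entry had 400, 538 and 539 RPM in mESC chromatin and 638, 416 and 408 RPM in mNPC chromatin. In mESC nucleoplasm it had 274, 0 and 154 RPM, in mNPC nucleoplasm 207, 0 and 112 RPM and in mNPC cytoplasm 252, 0 and 180.7 RPM. In none of these 3 libraries was the chromosome 13 entry at 0, where it had 243, 214.2 and 218 RPM. In the fit of all groups the chromosome 8 entry passed in no comparison. Its chromatin libraries lay above those of cytoplasm without overlap in each cell type. The mESC difference was 1.53 (SE 2.20, adjusted p = 0.676). It passed in mESC with these groups alone in the fit (adjusted p = 0.00517) and with a common floor (adjusted p = 0.0151). In mNPC it passed with a common floor (adjusted p = 0.00872).

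The 5p arms remain. miR-24-2-5p, from chromosome 8, had 201, 326 and 309 RPM in mESC nucleoplasm and 152, 233 and 416 RPM in mESC cytoplasm, but 0, 0 and 65.8 RPM in mESC chromatin. Chromatin lay below cytoplasm without overlap, and it passed there (adjusted p = 0.000805), though not with these groups alone in the fit (adjusted p = 0.0546). In mNPC it had 104, 94.1 and 70.9 RPM in chromatin, 119, 177 and 118 RPM in nucleoplasm and 175, 220 and 211 RPM in cytoplasm, where chromatin again lay lowest but did not pass. In mCtx it had 23.6, 0 and 0 RPM in chromatin, 11.8, 20.9 and 17.03 RPM in nucleoplasm and 0, 12.1 and 16.8 RPM in cytoplasm. Each mCtx library lay below each mNPC library of its fraction, and it passed as lower in mCtx in chromatin (adjusted p = 0.00748) and in cytoplasm (adjusted p = 0.00529). The chromatin call was lost with a common floor, at a difference of -0.58 (adjusted p = 0.116), and with these groups alone in the fit (adjusted p = 0.0729). In mESC cytoplasm it made up 53.4% to 69.3% of its own reads plus those of the miR-24-3p entry of the same locus, and in mESC chromatin 0% to 10.9%. This share depends on the unknown sharing of miR-24-3p reads between loci. It was 100% in replicate 2 of mESC nucleoplasm, mNPC nucleoplasm and mNPC cytoplasm, where that miR-24-3p entry stood at 0.

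miR-27b-5p was listed mainly in mESC, with 42.4, 78.7 and 47.2 RPM in nucleoplasm and 259, 229 and 239 RPM in cytoplasm. In chromatin all 3 mESC libraries stood at 0. Elsewhere it was listed in 5 libraries, 1 of mNPC and 4 of mCtx, at 12.4 to 50.8 RPM. miR-27a-5p had 0, 32.6 and 55.1 RPM in mESC nucleoplasm, 93.7, 204 and 318 RPM in mESC cytoplasm and 22.5, 79.1 and 40.6 RPM in mNPC cytoplasm, and stood at 0 in every other library. Neither arm was listed in any chromatin library. Both were lower in mESC chromatin than in mESC cytoplasm (adjusted p = 2.30e-05 for miR-27b-5p), and miR-27a-5p was lower in mNPC chromatin than in mNPC cytoplasm (adjusted p = 6.11e-05). The mNPC call was lost with a common floor (adjusted p = 1). In mCtx, miR-27b-5p passed as lower in chromatin, with 0 in all 3 libraries, against 35.4, 0 and 22.7 RPM in cytoplasm, which overlapped (adjusted p = 0.0486, a call lost with a common floor and when any of 22 of the 27 libraries was left out). In mESC cytoplasm, miR-27a-5p was 6.67% ± 2.08 of the miR-27a reads and miR-27b-5p 1.67% ± 0.171 of the miR-27b reads. In mNPC cytoplasm miR-27a-5p was 3.87% ± 2.05 of the miR-27a reads. The lowest listed value was 45.2 to 54.8 RPM in mESC chromatin, against 27.6 to 42.4 RPM in mESC cytoplasm, and 32.5 to 59.07 RPM in mNPC chromatin, against 22.5 to 40.6 RPM in mNPC cytoplasm, and 5p arms below it could not be seen.

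Over the 9 group means of log2(RPM + 1), the microRNAs most like the summed miR-23a and miR-27a entries were miR-20a-5p (Pearson r = 0.975), miR-148a-3p (0.973) and miR-423-3p (0.936), of 158 candidates. Those most like the summed miR-23b and miR-27b entries were miR-181d-5p (0.899), miR-101b-3p (0.894) and miR-22-3p (0.893). miR-24-3p was less like either sum, with r = 0.617 and -0.0804 for its chromosome 13 entry and 0.131 and -0.318 for its chromosome 8 entry. The 9 points share their libraries and their scaling, so these values are descriptions of the pattern over groups.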

How the data were processed

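Small RNA of 9 groups (chromatin, nucleoplasm and cytoplasm of mCtx, mNPC and mESC; 3 libraries each, 27 in all) was measured. Per the labels' protocols, RNA under 200 nt was cleaned of ribosomal RNA, made into TruSeq small RNA libraries, cut from a gel and sequenced on a MiSeq. The deposited values are RPM, scaled by the authors. What aligned the reads, to which build, and how shared reads and low values were treated was not given in the sources used here. Depth per library was not given, and the listed values summed to 73.9% to 97.4% of the total the unit implies. Groups came from sample titles.

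The members were chosen by name. The members and all lists were chosen with earlier results of these data known. Entries averaging at least 100 RPM were given by library, and others by range, except that arms with few listed values were given singly. The tests used R 4.3.3 with limma 3.58.1. Of all entries, 851 reached 1 RPM in 3 or more libraries and were fitted as log2(RPM + 1), with a mean per group, 18 residual degrees of freedom, a variance trend over intensity and robust estimation. Benjamini-Hochberg adjustment covered all entries within each of 17 comparisons. The pipeline was tested on simulated data. Likeness used non-member microRNA entries above 0 in at least 18 libraries. Alternatives were another pseudocount, a common floor, other filters, other scalings, plain variances, the groups of a comparison alone, a replicate block, summed arms and each library left out. Merged miR-24-3p copies were an alternative chosen after seeing the data. Sequences came from RefSeq and gene positions from GENCODE.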

Additional observations from a re-analysis of the deposited data

Results flagged for a closer look

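In 4 cases the difference between chromatin and cytoplasm itself differed between cell types by limma's interaction term. Between mNPC and mESC it differed for miR-27b-3p by 1.42 on the log2(RPM + 1) scale (SE 0.326, adjusted p = 0.00196). For miR-27b-5p the fitted value was 6.03 (adjusted p = 0.0165), but all 3 chromatin libraries of both cell types and 2 of the mNPC cytoplasm libraries stood at 0, so it is not a fold, and it did not pass without mNPC cytoplasm replicate 1 (adjusted p = 0.0522) or 3 (0.0501). Between mCtx and mNPC it differed for miR-27a-3p by 1.57 (SE 0.529, adjusted p = 0.0478). For miR-27a-5p the fitted value was 5.42 (adjusted p = 0.00559). That arm was listed only in mNPC cytoplasm among these groups, at 22.5, 79.1 and 40.6 RPM, so this too is not a fold, and it was lost with a common floor (adjusted p = 1). All groups had 3 libraries, too few for a check of single libraries that stand apart.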

How the results depend on the processing

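The counts of members that passed shifted with the setting. With a pseudocount of 10 RPM they were 2 for mESC nucleoplasm against cytoplasm (1 as reported), 4 for mCtx against mNPC in nucleoplasm (2) and 4 for the mNPC against mESC interaction (2). With a common floor they were 2 and 0 for nucleoplasm against cytoplasm in mESC and mNPC (1 each), 5 for mNPC chromatin against cytoplasm (3), 0 and 6 for mNPC against mESC in chromatin (1) and cytoplasm (3), and 4 for mCtx against mNPC in nucleoplasm (2). The stricter filter, which drops miR-27a-5p, gave 0 for nucleoplasm against cytoplasm in mESC and mNPC and 0 for the mCtx against mNPC interaction. Scaled to microRNA reads they were 1 for mNPC chromatin against cytoplasm, 4 for mNPC against mESC in chromatin and 1 for each interaction. With centred libraries they were 1 for mNPC chromatin against cytoplasm, 4 for mCtx nucleoplasm against cytoplasm (0), and 2 and 3 for mNPC against mESC in chromatin and nucleoplasm (5). With the groups of a comparison alone they were 5 and 1 for chromatin against cytoplasm in mNPC and mCtx (3 each), 0 and 6 for mNPC against mESC in chromatin and cytoplasm, and 4 and 3 for mCtx against mNPC in nucleoplasm and cytoplasm (5). Summing arms and copies, which leaves 5 rows to test, gave between 0 and 4 calls in these comparisons. Plain variances gave 1 for the mCtx against mNPC interaction.

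Leaving out each library in turn gave 5 to 8 calls for mESC chromatin against cytoplasm, 1 to 5 for mNPC, 1 to 3 for mCtx, and 0 to 1 for nucleoplasm against cytoplasm in mCtx. For mNPC against mESC it gave 0 to 1 in chromatin, 4 to 5 in nucleoplasm and 2 to 4 in cytoplasm. The interactions gave 1 to 3 (mNPC against mESC) and 1 to 2 (mCtx against mNPC). Of 59 single results, 43 kept their direction and their side of the threshold whichever library was left out, 14 lost a call and 2 gained one. Direction reversed for miR-23a-3p in mESC chromatin against cytoplasm when scaled to microRNA reads (0.31) and for miR-27b-3p in mCtx chromatin against cytoplasm with centred libraries (0.94); the cause was not tested. Centring moved the median of all entries from 0 to 0.68 for mCtx nucleoplasm against cytoplasm, and from -1.20 to -0.36 for mNPC against mESC in nucleoplasm, where scaling to microRNA reads gave -1.57. For mCtx against mESC in nucleoplasm the median of -0.45 moved to 0 and -0.83.

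Same-numbered libraries were not taken as pairs, since not every correlation of their deviations exceeded 0.1. In mESC, however, the ratio of miR-27b-3p to miR-27a-3p followed the replicate number, so same-numbered mESC libraries may not be independent. Between fractions of a cell type it was -0.12 to 0.19 (median 0.05), above 0.1 in 8 of 27 pairs (4 of 9 in mESC), against 2 of 54 differently numbered pairs (median -0.02), and it was -0.08 to 0.10 between cell types, above 0.1 in 0 of 27. A replicate block left 57 of the 59 results on the same side of the threshold; miR-27b-5p in mCtx chromatin against cytoplasm (adjusted p = 0.0657) and the chromosome 13 entry of miR-24-3p in mCtx against mESC chromatin (adjusted p = 0.0504) lost their call. Merging the miR-24-3p copies, chosen after seeing the data, left 57 of the 59 as they were. Depth was not given, and values under a library's lowest listed value stand as 0, which limits what the 5p arms and miR-23b-3p can show.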
